A study of Mus musculus with 10 samples.

Results

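The cytosolic ribosomal protein genes of the mouse hippocampus were taken from the table of CAGE values by symbol. A row was a member when its symbol starts with Rpl or Rps followed by a digit, or is *Rpsa*, *Rplp0*, *Rplp1* or *Rplp2*. Symbols that start with Rps6k (kinases of the S6 protein) or contain -ps (named as pseudogenes) were left out. Of the 15900 genes listed, 82 were members, 34 with Rps (small subunit) and 48 with Rpl (large subunit) symbols, and all 82 passed the filter on low values that was used for testing. The members were thus chosen by name and not by their values. *Rps19bp1*, named as a binding partner of the S19 protein, and *Rpl7l1*, a nucleolar relative of *Rpl7*, fit the symbols although their products are not counted as subunits of the ribosome.

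Cap analysis of gene expression (CAGE), which sequences the capped 5′ ends of RNA, was applied to the whole hippocampus of 10 male ICR mice aged 9 to 10 weeks, in 5 groups of 2. Pre-SE mice are labelled as untreated, and in the study's methods such controls received saline. The other mice received pilocarpine (PILO, a muscarinic agonist) at 290 mg/kg after methyl scopolamine, entered status epilepticus (SE) and were given diazepam to end it. In the study's methods, SE was reached when a mouse had had 5 generalized convulsive seizures. SE 6 h and SE 2 days mice were sampled at those times after SE without further drug, and SE + LEV 6 h and SE + LEV 2 days mice had been given oral levetiracetam (LEV, an antiseizure drug) at 360 mg/kg, 1 time before 6 h and 5 times before 2 days. PILO, SE and diazepam came together in every SE group, so their parts cannot be told apart. ICR is an outbred stock, so mice of a group are not genetically identical, and the labels do not say whether samples are separate cages or litters.

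The cytosolic ribosome is built from ribosomal RNA and one copy of most ribosomal proteins. The small subunit, whose proteins carry Rps symbols, reads the mRNA, and the large subunit, with Rpl symbols, joins amino acids and holds the stalk of *Rplp0*, *Rplp1* and *Rplp2* that recruits elongation factors. Their mRNAs are among the most abundant in nearly every cell and usually begin with a C followed by a run of pyrimidines, the 5′ terminal oligopyrimidine (TOP) motif, through which mTOR signalling controls their translation. Many of the genes hold small nucleolar RNAs (snoRNAs) in their introns, and most have processed pseudogenes, copies of the spliced mRNA elsewhere in the genome, whose near-identical sequence makes the origin of a short tag uncertain.

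CAGE tags start at the cap, which is where a TOP motif lies. The RefSeq promoter table of GRCm38.p6, a later build than the mm9 of the tags, held entries for 60 of the 82 members. At the annotated start, a C followed by at least 4 pyrimidines was present in 13 of these 60 genes (21.7%), against 2.96% of the 10085 listed and tested genes with an entry. A run of at least 8 C or T within 30 bases on each side of the start, read along the transcript, was found in 34 members (56.7%) against 25.8% of those genes, whereas a run of 8 A or G, the same motif on the other strand, was found in 13.3% against 27.9%. The letters CTTTCC stood in that window in 18.3% of members and 3.38% of the other set, and their reverse complement GGAAAG in 3.33% and 3.05%. Both can lie within a longer run counted above. The letters TATAAA stood in the 50 bases before the start in 1.67% of members and 1.79% of the tested genes.

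The windows below run from 15 bases before to 15 bases from the annotated RefSeq start on GRCm38.p6, 5′ to 3′ along the transcript, with the longest run of C and T (the first, where runs tie) in capitals. They are shown for the members of highest CPM, for 3 members that passed the test in a comparison and for the paralogs *Rpl22l1* and *Rps27l*, which has 2 annotated starts, where the table has them.
Rpl39, chrX:37085208-37085237, - strand: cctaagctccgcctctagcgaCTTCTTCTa
Rps15, chr10:80292416-80292445, + strand: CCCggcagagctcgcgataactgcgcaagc
Rpl31, chr1:39367836-39367865, + strand: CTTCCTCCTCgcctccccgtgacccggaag
Rpl13, chr8:123102335-123102364, + strand: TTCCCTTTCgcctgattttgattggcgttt
Rpl10, chrX:74270801-74270830, + strand: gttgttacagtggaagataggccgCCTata
Rps26, chr10:128626492-128626521, - strand: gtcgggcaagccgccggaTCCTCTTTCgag
Rps4x, chrX:102189377-102189406, - strand: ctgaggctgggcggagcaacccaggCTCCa
Rpl22l1, chr3:28805493-28805522, + strand: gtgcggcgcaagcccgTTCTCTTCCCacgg
Rps27l, chr9:66946071-66946100, + strand: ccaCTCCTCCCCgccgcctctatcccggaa
Rps27l, chr9:66946398-66946427, + strand: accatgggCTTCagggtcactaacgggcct

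The longest run was 10 bases in *Rpl31*, 10 in *Rpl22l1*, 9 in *Rpl13* and *Rps26* and 8 in *Rpl39*. In *Rps15*, *Rpl10* and *Rps4x* it was 3, 3 and 4 bases in the windows printed. The marked runs of *Rpl31*, *Rpl13* and the first *Rps27l* window lie wholly before the annotated start, and those of *Rpl22l1*, *Rps26* and *Rpl39* begin after it. In no window printed does the start itself carry a C followed by 4 pyrimidines. A long run here is thus not in itself a TOP motif. A short run says only that these letters are not at this annotated position.

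CPM values are tag counts scaled to the same total of tags on the listed genes in every mouse. Each tag marks 1 capped end, so CPM does not need a correction for gene length, and levels of different genes are compared on this scale. From the steps between low values, the totals were estimated at 10540699 to 51710969 per mouse, the lowest in SE + LEV 6 h replicate 2 and the highest in pre-SE replicate 2, and every member was above 3 tags in every mouse. All 10 neuronal markers and all 9 markers of hippocampal cell types were listed above 0 in every mouse. The summed CPM of 8 microglia and macrophage markers was 174 and 162 before SE and 383 and 381 at SE 2 days. The sum of the choroid plexus markers listed (4 of 5, mainly *Ttr*) ran from 8.72 to 4025 between mice, with no order by group, and 2 of 5 red blood cell markers were listed, at a sum of 2.79 to 23.8. In bulk tissue, fewer cells of a type and less RNA per cell cannot be told apart.

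The mean CPM of the members over the 10 mice ran from 14.7 to 846, with a median of 201 and quartiles of 98.4 and 366. By mean CPM, 23 members were among the 500 highest of the 15900 genes, and 1 was among the 100 highest. *Rps20* (mean 846), *Rpl39* (818) and *Rps15* (805) were the highest. Their neighbours in this order overlapped from mouse to mouse: *Rps20* ran from 509.9 to 1129.9, *Rpl39* from 549.6 to 1149, and *Rps15* from 599.9 to 1064. *Rpl29* (mean 14.7), *Rpl22l1* (16.3) and *Rps4y2* (17.5) were the lowest. *Rps4y2*, the symbol in the files, is listed by RefSeq as *Rps4l*, a transcribed pseudogene.

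By mouse, the CPM of *Rps20* was 527 and 905 before SE, 509.9 and 1046 at SE 6 h, 539 and 916 at SE + LEV 6 h, 834 and 1020.4 at SE 2 days and 1032 and 1129.9 at SE + LEV 2 days. It was under 600 in replicate 1 of the pre-SE, SE 6 h and SE + LEV 6 h groups and higher in the other 7 mice. The CPM of *Rpl39* was 601 and 724 before SE, 549.6 and 1149 at SE 6 h, 673 and 858 at SE + LEV 6 h, 728 and 993 at SE 2 days and 934 and 974 at SE + LEV 2 days. *Rps15*, a protein of the head of the small subunit, was at 664 and 793 before SE, 599.9 and 1064 at SE 6 h, 685 and 749 at SE + LEV 6 h, 823 and 1049 at SE 2 days and 915 and 705 at SE + LEV 2 days. Both also had their lowest value in SE 6 h replicate 1 and their highest in SE 6 h replicate 2. *Rpl29* was at 9.79 and 12.1 before SE, 14.5 and 16.99 at SE 6 h, 10.4 and 12.6 at SE + LEV 6 h, 17.2 and 23.6 at SE 2 days and 16.5 and 12.9 at SE + LEV 2 days, so that the lowest member was still measured in every mouse, with both pre-SE mice below the mice of the SE 6 h, SE 2 days and SE + LEV 2 days groups.

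The low place of some members in this order is not separate from the pseudogene rows. The table lists 55 -ps rows of Rpl and Rps symbols, which belong to 39 of the 82 members, and in 10 of these 39 the -ps rows together had a higher mean CPM than the member. *Rpl14* had a mean of 45.4 and its -ps row 569.6, and *Rpl3* had 33.3 and its -ps row 413. These pairs were chosen after their values were seen. In 20 of the 39, the -ps rows held less than 10% of the sum. How tags were divided between such rows is not given in the sources used here, so the level of a member with a high -ps row is uncertain.

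The share of all tags that fell on the 82 members was 1.53 and 1.93% before SE, 1.49 and 2.54% at SE 6 h, 1.55 and 2.08% at SE + LEV 6 h, 2.43 and 2.50% at SE 2 days and 2.41 and 2.27% at SE + LEV 2 days. The pre-SE mean was 1.73% ± 0.28 (SD, n = 2), and the means were 2.02% ± 0.75 at SE 6 h, 1.81% ± 0.37 at SE + LEV 6 h, 2.47% ± 0.05 at SE 2 days and 2.34% ± 0.10 at SE + LEV 2 days. All 4 mice sampled at 2 days were above both pre-SE mice, whereas the 6 h groups overlapped pre-SE mice. No p is given for this share, since an exact two-sided permutation of 2 mice against 2 cannot go below 0.333.

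**Figure D1:**
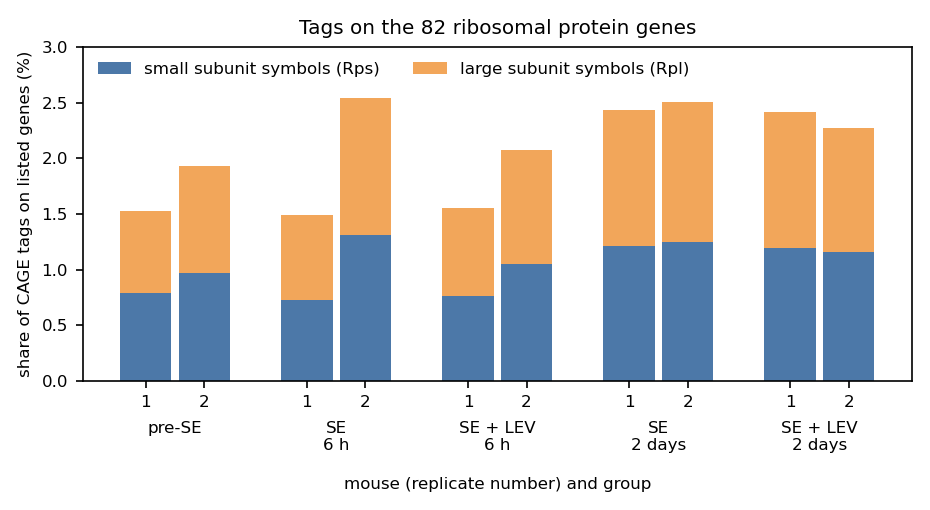
Share of CAGE tags on listed genes (%) taken by the ribosomal protein genes in each of the 10 mice, by group, with the small and large subunit symbols stacked. Replicate 1 of the pre-SE, SE 6 h and SE + LEV 6 h groups stands at 1.49% to 1.55%, and the 4 mice at 2 days stand at 2.27% to 2.50%.

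The ratio of small to large subunit tags was 1.06 and 1.02 before SE, 0.94 and 1.06 at SE 6 h, 0.97 and 1.03 at SE + LEV 6 h, 0.998 and 0.99 at SE 2 days and 0.97 and 1.04 at SE + LEV 2 days. The highest was in SE 6 h replicate 2 and the lowest in the other mouse of that group, so the spread within SE 6 h mice covered all groups. Without *Rps2* and *Rplp1*, which differed most between mice of a group, the ratio was 0.95 to 1.04, and the share was 1.47 and 1.92% before SE, 1.48 and 2.37% at SE 6 h and 2.30 and 2.49% at SE 2 days.

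Mice of a group differed in most members at once in the pre-SE and 6 h groups. Replicate 2 was above replicate 1 in 70 of 82 members in pre-SE mice, in 72 at SE 6 h and in 71 at SE + LEV 6 h, with a median ratio of 1.31, 1.49 and 1.27. At 2 days it was above in 43 members without LEV and in 34 with LEV, with a median ratio of 1.01 and 0.939. In 52 of 82 members, replicate 1 of the pre-SE, SE 6 h and SE + LEV 6 h groups were the 3 lowest of the 10 mice. The highest mouse was a 2 days mouse in 53 members and SE 6 h replicate 2 in 26.

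The 3 mice with the lowest ribosomal protein share were also the 3 with the highest neuronal sum. The summed CPM of the 10 neuronal markers was 11214 and 9739 before SE, 9799 and 6691 at SE 6 h, 10328 and 7070.4 at SE + LEV 6 h, 6738 and 5661 at SE 2 days and 6234 and 6067 at SE + LEV 2 days. The sum of the 6 oligodendrocyte markers was 4967 and 5400.1 before SE, 3407 and 6473 at SE 6 h, 5549 and 4199.7 at SE + LEV 6 h, 1777 and 2725 at SE 2 days and 3273 and 4596 at SE + LEV 2 days, with both SE 2 days mice lowest. The sum of the 7 astrocyte markers was 3211 and 2682 before SE, 2718 and 3278 at SE 6 h, 3348 and 2537 at SE + LEV 6 h, 3795 and 5143 at SE 2 days and 4666 and 4587 at SE + LEV 2 days, higher in all 4 mice at 2 days than in the other 6. Only 3 of the 7 had a logFC above 0 against pre-SE in either 2 days group, with medians of −0.73 at SE 2 days and −0.11 at SE + LEV 2 days. The sum of the 6 endothelial markers was 60.1 and 67.6 before SE, 115 and 178 at SE 6 h, 91.1 and 154 at SE + LEV 6 h, 118 and 107 at SE 2 days and 93.6 and 136 at SE + LEV 2 days, lowest in the pre-SE mice. Choroid plexus markers were at 8.72 and 4025 in SE 6 h replicates 1 and 2, the mice with the lowest and the highest ribosomal protein share. The mouse with more of these markers also had the higher share in the pre-SE (12.56 and 1710) and SE + LEV 2 days groups (1507 and 27). The order was reversed at SE + LEV 6 h (869 and 41.3) and at SE 2 days (67.85 and 23.02). The part of these cell types in the share was not tested.

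**Figure D2:**
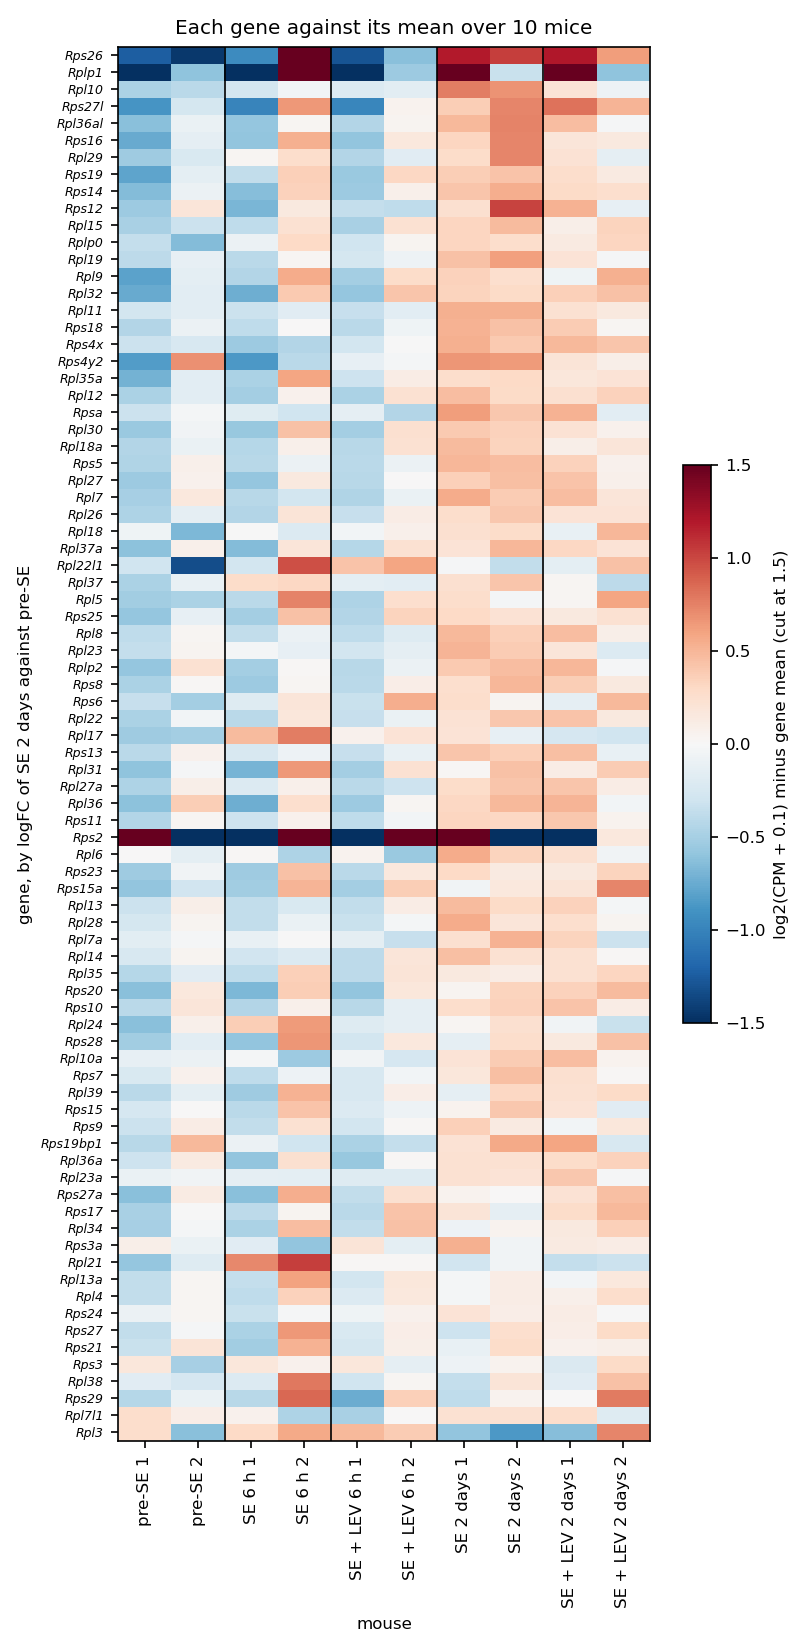
Each of the 82 genes (rows, ordered by logFC of SE 2 days against pre-SE) in each mouse (columns), as log2(CPM + 0.1) minus the mean of that gene over the 10 mice, with colours cut at 1.5. Most rows are below their mean in replicate 1 of the pre-SE, SE 6 h and SE + LEV 6 h groups and above it in the 4 mice at 2 days, and *Rpl21* and *Rpl17* are above it in both SE 6 h mice.

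The first question is what changed 6 h after SE. Against pre-SE mice, *Rpl21* and *Rpl17* rose in SE 6 h mice, and no other member passed the test, which was limma on log2(CPM + 0.1) with adjustment over 15851 genes and a limit of 0.05. The 2 members called higher are 2.44% of 82, beside 2.76% of all genes tested, and 0 were called lower, beside 0.202%. At an unadjusted p under 0.05, 7 members (8.54%) were higher and 0 lower, beside 9.21% of genes higher and 8.51% lower. With only the groups compared in the fit, 3 members were higher, and the share of all genes was not counted. Both SE 6 h mice exceeded both pre-SE mice in 12 members (14.6%), beside 18.6%. These shares are near or under the background. The median logFC of members was 0.14, and that of all genes was −0.13, with 58 of 82 members above 0 (70.7%, beside 40% of all genes).

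*Rpl21* (ENSMUSG00000041453, chr5:147644466-147648608 of mm9, plus strand) encodes a large subunit protein and holds 2 snoRNAs. Its CPM was 41.4 and 54.1 before SE, 102 and 127 at SE 6 h, 62.9 and 62.6 at SE + LEV 6 h, 50.7 and 59.8 at SE 2 days and 48.3 and 49.3 at SE + LEV 2 days. Both SE 6 h mice were above all other mice. It was higher in SE 6 h than in pre-SE mice (logFC = 1.26 with a standard error of 0.23, limma adjusted p = 0.016), a fold of 2.40, and lower at SE 2 days than at SE 6 h (logFC = −1.05 with a standard error of 0.23, limma adjusted p = 0.031). The difference between SE + LEV 6 h and SE 6 h mice was not called (logFC = −0.86 with a standard error of 0.23, limma adjusted p = 0.53), although the groups did not overlap. The single -ps row of *Rpl21* was under 0.5 CPM in every mouse.

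*Rpl17*, another large subunit gene, which holds 3 snoRNAs, had a CPM of 24.4 and 24.9 before SE, 49.1 and 60.4 at SE 6 h, 37.1 and 40.98 at SE + LEV 6 h, 40.9 and 32.5 at SE 2 days and 29.6 and 28.8 at SE + LEV 2 days. Both SE 6 h mice were again above all others, and the difference from pre-SE mice was called (logFC = 1.14 with a standard error of 0.23, limma adjusted p = 0.026). With the 2 -ps rows of *Rpl17* added, which together held more tags than the gene, logFC was 0.71 (limma adjusted p = 0.17), so the call was lost. It was also lost without any 1 of the 4 mice compared (limma adjusted p = 0.067 to 0.2). For *Rpl21* the call was lost without pre-SE replicate 1 or SE 6 h replicate 2 (limma adjusted p = 0.14 in each case).

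Both SE 6 h mice exceeded both pre-SE and both SE + LEV 6 h mice in 5 members (6.10%, beside 8.5% of all genes), *Rpl17*, *Rpl21*, *Rpl24*, *Rpl29* and *Rpl37*. This pattern was chosen after the values were seen, and apart from *Rpl17* and *Rpl21* against pre-SE mice no such difference of these genes was called. *Rpl24*, at the interface of the subunits, was at 78.2 and 127 before SE, 156 and 188 at SE 6 h, 106 and 109.8 at SE + LEV 6 h, 124 and 142 at SE 2 days and 116 and 96.1 at SE + LEV 2 days (SE 6 h against pre-SE: logFC = 0.78 with a standard error of 0.26, limma adjusted p = 0.16). Its annotated span overlaps *Pcnp* on the other strand. *Rpl37* was at 35.7 and 46.2 before SE, 60.3 and 61.7 at SE 6 h, 44.99 and 44.8 at SE + LEV 6 h, 58.9 and 66.4 at SE 2 days and 50.9 and 37.99 at SE + LEV 2 days (SE 6 h against pre-SE: logFC = 0.59 with a standard error of 0.23, limma adjusted p = 0.23).

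**Figure D3:**
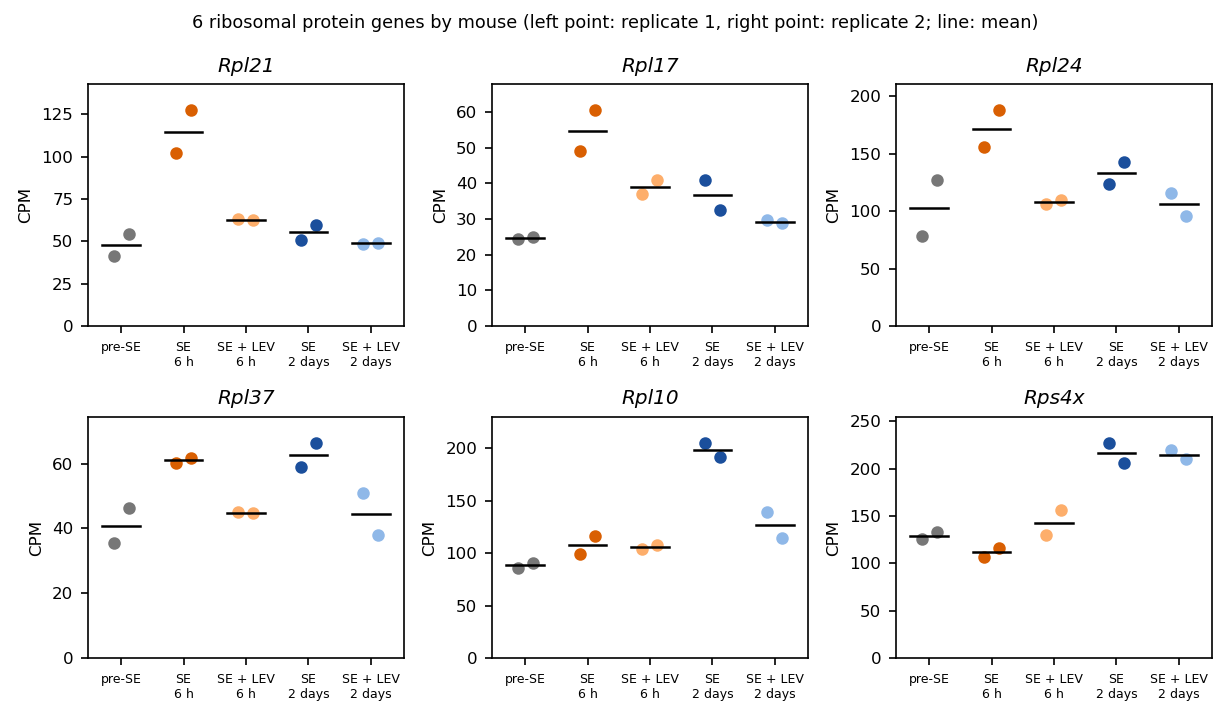
CPM of 6 ribosomal protein genes in each mouse by group, on linear axes from 0, with replicate 1 on the left, replicate 2 on the right and the group mean as a line. *Rpl21* stands at 102 and 127 CPM in SE 6 h mice and at 41.4 and 54.1 before SE. *Rpl10* is highest in SE 2 days mice, and *Rps4x* is higher in all 2 days mice, with or without LEV, than in the other mice.

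The other extreme members at 6 h were not called. *Rps26* (1.62) and *Rplp1* (1.47) had the largest logFC, above *Rpl21*, and in both SE 6 h replicate 2 was far above replicate 1. Without SE 6 h replicate 1, *Rps26* was called (logFC = 2.84, limma adjusted p = 0.013). *Rps4y2* (−0.56), *Rpl7l1* (−0.38) and *Rps3a* (−0.38) had the lowest. *Rps3a*, a small subunit protein near the mRNA exit, was at 204 and 179.7 before SE, 171 and 127 at SE 6 h, 219 and 174 at SE + LEV 6 h, 278 and 185 at SE 2 days and 210.1 and 208 at SE + LEV 2 days. Both SE 6 h mice were below both pre-SE and both SE + LEV 6 h mice. The median logFC over members was −0.16 without SE 6 h replicate 2, −0.06 without pre-SE replicate 1 and 0.44 without SE 6 h replicate 1, so its direction rests on single mice. Median-of-ratios scaling moved the median of all genes from −0.13 to −0.005 and that of members to 0.27, with the same 2 members called.

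At 2 days the members stood higher as a family. Against pre-SE mice, 81 of 82 members (98.8%, beside 47.2% of all genes) had a logFC above 0 at SE 2 days. The median was 0.56, a fold of 1.47, whereas the median over all genes was −0.03. Both SE 2 days mice exceeded both pre-SE mice in 61 members (74.4%), beside 26.3% of all genes, and were below both in 0, beside 25.6%. At an unadjusted p under 0.05, 25 members (30.5%) were higher, beside 12.5%, and 0 were lower, beside 7.29%. The count of 25 became 17 with no mean-variance trend and 32 with the replicate number as a block, where the share of all genes was not counted. After adjustment over all genes, *Rpl10* and *Rps26* were called higher (2 of 82, 2.44%, beside 5.07%) and 0 members were called lower, beside 0.593%. The share of members called was thus not above that of all genes, while the shares at an unadjusted p and without overlap were. The median logFC was 0.52 in the 43 members without a listed -ps row. The median of all 82 was above 0 whichever mouse was left out, from 0.35 without pre-SE replicate 1 to 0.77 without pre-SE replicate 2. The sum of the 8 microglia and macrophage markers, none at 0 in any mouse, was 112 and 93.7 at SE 6 h, 142 and 114 at SE + LEV 6 h and 467 and 404 at SE + LEV 2 days, so it was higher in all 4 mice at 2 days than in the other 6, like the astrocyte sum. At SE 2 days against pre-SE, 7 of these 8 markers had a logFC above 0, with a median of 1.35. Of the 7 astrocyte markers, only 3 were above 0, with a median of −0.73, and *Gfap* and *Aqp4* were called higher. The parts of the microglia, astrocyte and endothelial markers in the result were not tested.

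**Figure D4:**
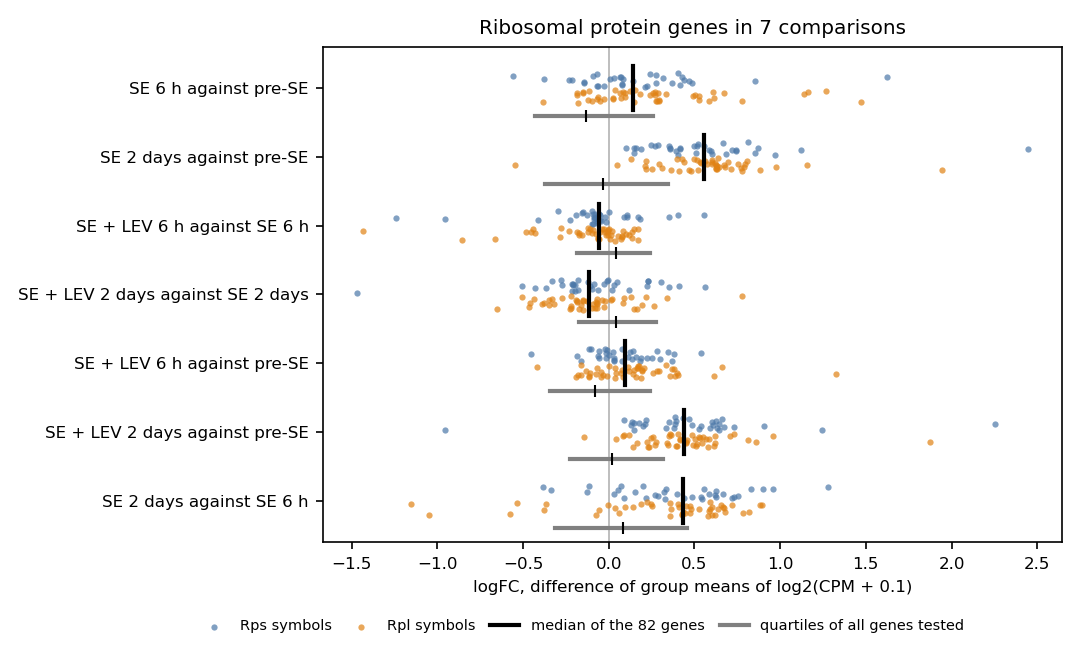
LogFC of each of the 82 members in 7 comparisons (points, Rps above Rpl symbols), with their median as a black bar and the quartiles and median of all genes tested as a grey line and tick. Members lie mostly above 0 in the comparisons of 2 days with pre-SE and with SE 6 h, at medians of 0.56, 0.44 and 0.43.

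*Rpl10* (ENSMUSG00000008682, chrX:71516151-71518474 of mm9, plus strand), whose protein takes part in the last steps that make the large subunit active, had a CPM of 86.4 and 91.2 before SE, 99.1 and 117 at SE 6 h, 104 and 108 at SE + LEV 6 h, 205 and 191 at SE 2 days and 139 and 114 at SE + LEV 2 days. Both SE 2 days mice were above all others. It was called against pre-SE mice (logFC = 1.16 with a standard error of 0.20, limma adjusted p = 0.0087) and against SE 6 h mice (logFC = 0.88 with a standard error of 0.20, limma adjusted p = 0.04). The call against pre-SE mice was lost without either pre-SE mouse or SE 2 days replicate 2, with limma adjusted p-values of 0.053 to 0.081. Its 2 -ps rows were also highest in SE 2 days mice. *Rpl10-ps1* was at 6.66 and 8.5 CPM beside 1.76 and 3.38 before SE, and *Rpl10-ps3* at 10.1 and 12.1 beside 4.72 and 6.58.

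*Rps4x* (ENSMUSG00000031320, chrX:99380280-99384733 of mm9, minus strand), an X-linked small subunit gene without a listed -ps row, was at 126 and 133 before SE, 107 and 116 at SE 6 h, 129.8 and 156 at SE + LEV 6 h, 227 and 206 at SE 2 days and 219.6 and 209.6 at SE + LEV 2 days. All 4 mice at 2 days were above all 6 others. It was called higher at SE 2 days than at SE 6 h (logFC = 0.96 with a standard error of 0.20, limma adjusted p = 0.027) and missed the limit against pre-SE mice (logFC = 0.74 with a standard error of 0.20, limma adjusted p = 0.058). *Rpl11*, which binds MDM2 when ribosome assembly is disturbed, was at 97.01 and 106 before SE, 93.9 and 105 at SE 6 h, 92.7 and 106 at SE + LEV 6 h, 170.4 and 171 at SE 2 days and 138 and 131 at SE + LEV 2 days, again with all 4 mice at 2 days above the rest. It also missed the limit against pre-SE mice (logFC = 0.75 with a standard error of 0.19, limma adjusted p = 0.051). With median-of-ratios or TMM scaling, *Rps4x* and *Rpl11* were called as well, which made 4 of 82 members. Of all 15851 genes, 777 and 796 were called higher in these settings, beside 803 (5.07%) in the main fit.

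Against SE 6 h mice, SE 2 days mice had 69 of 82 members above 0 (84.1%, beside 55.7%), with a median logFC of 0.43 beside 0.09 for all genes. *Rps4x* and *Rpl10* were called higher (2.44%, beside 3.14%) and *Rpl21* lower (1.22%, beside 1.11%). At an unadjusted p under 0.05, 19 members were higher (23.2%, beside 12.8%) and 3, *Rpl3*, *Rpl21* and *Rpl17*, lower (3.66%, beside 7.29%). With median-of-ratios or TMM scaling, 10 members were higher at that p (12.2%), and 13 were with no mean-variance trend or with only the groups compared. The share of all genes at that p was not counted in these settings. Both SE 2 days mice were above both SE 6 h mice in 43 members (52.4%, beside 31%). The median was 0.14 without SE 6 h replicate 1 and was 0.69 without SE 6 h replicate 2. Each of the 3 calls was lost without any 1 of the 4 mice compared. That of *Rpl10* was also lost without either pre-SE or either SE + LEV 6 h mouse, and that of *Rpl21* without SE + LEV 6 h replicate 2. All 3 were lost with no mean-variance trend (limma adjusted p = 0.077 for *Rpl10*, 0.054 for *Rps4x* and 0.056 for *Rpl21*). They were also lost with only the groups compared (limma adjusted p = 0.092, 0.071 and 0.063). The *Rpl10* call was further lost with median-of-ratios or TMM scaling (limma adjusted p = 0.069 and 0.066) and with the replicate number as a block (0.053).

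LEV was compared with SE alone at each time. At 6 h, 0 members were called between SE + LEV and SE mice by limma, beside 0.0126% of all genes. At an unadjusted p under 0.05, 0 members were higher, beside 1.16%, and 2, *Rpl21* and *Rpl24*, lower (2.44%, beside 3.42%). The median logFC of members was −0.06, beside 0.04 for all genes, with 26 of 82 above 0 (31.7%, beside 55.7%). Both SE + LEV 6 h mice were below both SE 6 h mice in 10 members (12.2%, beside 13.4%), and above them in 3 (3.66%, beside 16.1%). *Rplp1* (−1.43), *Rps26* (−1.24) and *Rps2* (−0.95) had the lowest logFC, all 3 with overlapping groups, and *Rps4y2* (0.56), *Rps3a* (0.41) and *Rps4x* (0.35) the highest. The median was −0.37 without SE 6 h replicate 1 and 0.26 without SE 6 h replicate 2, and it was 0.16 without SE + LEV 6 h replicate 1.

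At 2 days, 0 members were called between SE + LEV and SE mice by limma, beside 0% of all genes. At an unadjusted p under 0.05, 0 were higher, beside 1.31%, and 1, *Rpl10*, lower (1.22%, beside 1.39%). For *Rpl10* the difference was not called (logFC = −0.65 with a standard error of 0.20, limma adjusted p = 1). The median logFC was −0.11, beside 0.04 for all genes, with 23 of 82 above 0 (28%, beside 55.4%). Both SE + LEV 2 days mice were below both SE 2 days mice in 21 members (25.6%, beside 12.2%), and above them in 8 (9.76%, beside 15.2%). *Rps2* (−1.47), *Rpl10* and *Rpl37* (−0.51) had the lowest logFC, and *Rpl3* (0.78), *Rps29* (0.56) and *Rps15a* (0.41) the highest. Leaving out any mouse kept this median between −0.22 and −0.06. The LEV effect at 2 days was also set against that at 6 h. In that test 0 members were called by limma, beside 0% of all genes, and the median was −0.07. In either direction 0 members were past an unadjusted p of 0.05, beside 1.58% of all genes higher and 0.795% lower.

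SE + LEV mice were also set against pre-SE mice, the same 2 mice as in the comparisons of SE with pre-SE, so these results are not independent of those. At 6 h, 0 members were called by limma, beside 0.322%. Where the unadjusted p was under 0.05, 2 members, *Rpl17* and *Rpl22l1*, were higher (2.44%, beside 5.53%) and 0 lower, beside 3.85%. The median was 0.10, and both SE + LEV 6 h mice exceeded both pre-SE mice in 9 members (10.98%, beside 17%). At 2 days, 0 members were called by limma, beside 2.85%, with 6 higher (7.32%, beside 8.86%) and 0 lower (beside 1.91%) where the unadjusted p was under 0.05. That count of higher members was 20 with the replicate number as a block, 11 with only the groups compared and 3 without a mean-variance trend. In these settings the share of all genes at that p was not counted. The median was 0.44 beside 0.02 for all genes, and 80 of 82 members were above 0 (97.6%, beside 51.8%). Both SE + LEV 2 days mice exceeded both pre-SE mice in 53 members (64.6%, beside 22.6%). In 44 members (53.7%, beside 16.8% of all genes), all 4 mice at 2 days were above both pre-SE mice, and in 0 members were all 4 below. The median at 2 days was 0.25 to 0.66 when 1 mouse was left out, and that at 6 h was −0.09 without pre-SE replicate 1 and −0.11 without SE + LEV 6 h replicate 2.

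*Rps2*, *Rplp1* and *Rps26* differed more between mice of a group than any other member. This feature was chosen for description after the values were seen. *Rps2*, a small subunit protein at the mRNA entry, was at 587 and 16.03 before SE, 28.2 and 1092 at SE 6 h, 21.2 and 386 at SE + LEV 6 h, 777 and 24.7 at SE 2 days and 22.1 and 113 at SE + LEV 2 days, so that its highest mouse was 68.1 times the lowest. The row *Rps2-ps10* was at 0.170 and 54.6 before SE, 46.2 and 0.410 at SE 6 h, 48.2 and 13.8 at SE + LEV 6 h, 0.210 and 116 at SE 2 days and 60.4 and 33.4 at SE + LEV 2 days. In the 3 mice with the highest *Rps2*, this row was at its 3 lowest values, and in the 4 mice with the lowest *Rps2* it was at its 4 highest. With all 3 -ps rows added, the sum was 587 and 73.2 before SE and 77.2 and 1093 at SE 6 h. *Rps2* overlaps *Snhg9* on the other strand.

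*Rplp1*, a protein of the stalk, was at 44.8 and 84.99 before SE, 45.6 and 643 at SE 6 h, 45.6 and 88.3 at SE + LEV 6 h, 551 and 103 at SE 2 days and 602 and 85.3 at SE + LEV 2 days. It was at its 3 highest values in SE 6 h replicate 2 and in replicate 1 of both 2 days groups and at 103 or less in the other 7 mice. *Rps26*, a small subunit protein at the mRNA exit, was at 43.4 and 37.4 before SE, 53.1 and 289.8 at SE 6 h, 41.5 and 66.1 at SE + LEV 6 h, 232 and 209 at SE 2 days and 235 and 158 at SE + LEV 2 days. The row *Rps26-ps1* was at 171 and 119 before SE, 158 and 6.58 at SE 6 h, 175 and 253 at SE + LEV 6 h, 4.79 and 234 at SE 2 days and 8.37 and 186 at SE + LEV 2 days. This -ps row was at its 3 lowest values in the 3 mice where *Rplp1* was high. *Rps26* was called higher in SE 2 days than in pre-SE mice (logFC = 2.45 with a standard error of 0.61, limma adjusted p = 0.045) and not in SE + LEV 2 days mice (logFC = 2.25 with a standard error of 0.61, limma adjusted p = 0.1). With *Rps26-ps1* added, the sum was 215 and 156 before SE and 237 and 443 at SE 2 days, and the call was lost (logFC = 0.82, limma adjusted p = 0.23). It was also lost without any 1 of the pre-SE, SE 2 days or SE + LEV 6 h mice (0.067 to 0.24), with the replicate number as a block (0.056), with a pseudocount of 1 (0.055) and with no mean-variance trend (0.075), and without either SE 6 h mouse *Rps26* was called in SE + LEV 2 days mice (0.0073). The part of the division of tags between near-identical rows was not tested.

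**Figure D5:**
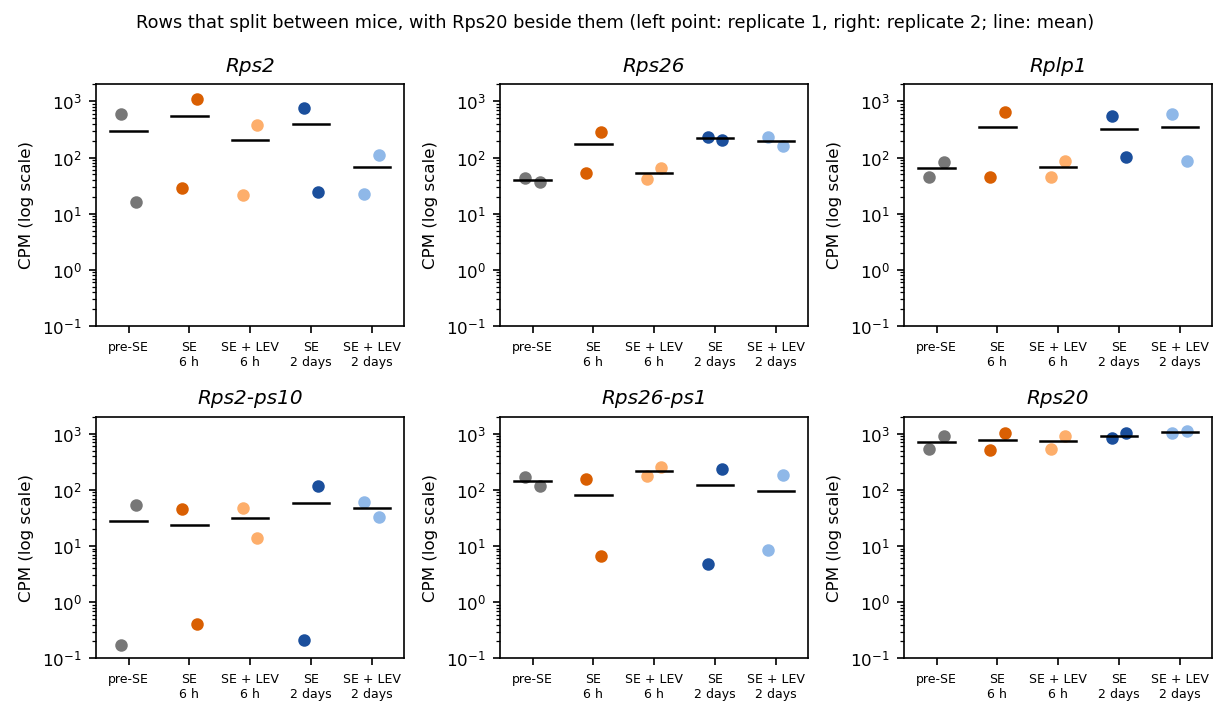
CPM by mouse on a log scale for *Rps2*, *Rplp1* and *Rps26*, for the rows *Rps2-ps10* and *Rps26-ps1*, and for *Rps20*, the member with the highest mean, with replicate 1 on the left, replicate 2 on the right and the group mean as a line. The SE 6 h mice lie at 28.2 and 1092 CPM in *Rps2*, and *Rps2-ps10* is low where *Rps2* is high.

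The 8 members that often serve as reference genes in PCR had groups that did not overlap in some comparisons, and 0 of the 8 were called by limma in any. *Rplp0*, the base of the stalk, was at 161 and 131 before SE, 193 and 253 at SE 6 h, 166 and 212 at SE + LEV 6 h, 257 and 246 at SE 2 days and 224 and 257 at SE + LEV 2 days. All 8 mice after SE were above both pre-SE mice, and logFC was 0.61 at SE 6 h, 0.80 at SE 2 days and 0.73 at SE + LEV 2 days against pre-SE (limma adjusted p = 0.21, 0.08 and 0.19). *Rps18* was at 72.4 and 92.9 before SE, 75.8 and 98.7 at SE 6 h, 74.4 and 94.4 at SE + LEV 6 h, 141 and 134 at SE 2 days and 128 and 101 at SE + LEV 2 days. All 4 mice at 2 days were above all 6 others (logFC = 0.75 with a standard error of 0.24, limma adjusted p = 0.11 for SE 2 days against pre-SE). *Rpl19* was at 361 and 437 before SE, 357 and 484 at SE 6 h, 394 and 449 at SE + LEV 6 h, 643 and 729.7 at SE 2 days and 549 and 467 at SE + LEV 2 days (logFC = 0.79 with a standard error of 0.24, limma adjusted p = 0.096 in the same comparison), with both SE 2 days mice above all others.

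*Rpl27* was at 384 and 586 before SE, 376 and 619 at SE 6 h, 421 and 563 at SE + LEV 6 h, 715 and 769 at SE 2 days and 752 and 593 at SE + LEV 2 days, with both SE 2 days mice above both pre-SE and all 6 h mice. *Rpl32* was at 154 and 233 before SE, 157 and 342 at SE 6 h, 174 and 348 at SE + LEV 6 h, 329 and 318 at SE 2 days and 334 and 353 at SE + LEV 2 days. In *Rpl32* replicate 1 of the pre-SE, SE 6 h and SE + LEV 6 h groups and pre-SE replicate 2 were lowest, and the other 6 mice were between 318 and 353. *Rpl4* was at 358 and 471 before SE, 355 and 589.6 at SE 6 h, 399.9 and 514 at SE + LEV 6 h, 455 and 499 at SE 2 days and 488 and 558 at SE + LEV 2 days. *Rpl13a*, whose span overlaps *Flt3l*, was at 228 and 300.2 before SE, 229 and 448 at SE 6 h, 243 and 332 at SE + LEV 6 h, 289 and 319.8 at SE 2 days and 288 and 329 at SE + LEV 2 days. In both, SE 6 h replicate 2 was highest and the 2 days groups lay within the range of the 6 h mice. *Rps29*, a small zinc-binding protein, was at 387 and 484 before SE, 389.6 and 941 at SE 6 h, 310.5 and 669 at SE + LEV 6 h, 399 and 541 at SE 2 days and 524 and 896 at SE + LEV 2 days, with replicate 2 above replicate 1 in all 5 groups. Against pre-SE mice at SE 2 days, logFC was 0.64 in *Rpl27*, 0.77 in *Rpl32*, 0.21 in *Rpl4*, 0.22 in *Rpl13a* and 0.10 in *Rps29*.

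Some members have a second gene for a near-identical or related protein. *Rpl22l1*, the paralog of *Rpl22*, was at 12.2 and 5.90 before SE, 12.4 and 29.5 at SE 6 h, 20.3 and 22.8 at SE + LEV 6 h, 14.9 and 11.6 at SE 2 days and 13.6 and 20.4 at SE + LEV 2 days. *Rpl22* was at 52.1 and 70.5 before SE, 54.9 and 81.95 at SE 6 h, 57.2 and 67.7 at SE + LEV 6 h, 84.6 and 96.4 at SE 2 days and 97.6 and 80.3 at SE + LEV 2 days. *Rpl22l1* was lowest in pre-SE replicate 2 and highest in SE 6 h replicate 2, and took 7.72% to 26.4% of the tags of the pair. At SE + LEV 6 h both mice exceeded both pre-SE mice (logFC = 1.33 with a standard error of 0.46, limma adjusted p = 0.37), which was not called. *Rps27l*, a paralog of *Rps27* induced by p53 in many cells, was at 54.1 and 83.7 before SE, 50.4 and 158 at SE 6 h, 50.9 and 104 at SE + LEV 6 h, 129 and 167 at SE 2 days and 177 and 143 at SE + LEV 2 days. *Rps27* was at 97.8 and 125 before SE, 90.8 and 197 at SE 6 h, 107 and 136 at SE + LEV 6 h, 102 and 150.4 at SE 2 days and 135 and 154 at SE + LEV 2 days. The share of *Rps27l* in that pair was 35.6 and 40.1% before SE, 55.98 and 52.6% at SE 2 days and 56.7 and 48.2% at SE + LEV 2 days, without overlap between pre-SE and either 2 days group. LogFC of *Rps27l* against pre-SE was 1.124 at SE 2 days and 1.24 at SE + LEV 2 days (limma adjusted p = 0.25 and 0.36).

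*Rpl36al* was at 135 and 194 before SE, 139 and 212 at SE 6 h, 153 and 214 at SE + LEV 6 h, 291 and 348 at SE 2 days and 286 and 206 at SE + LEV 2 days. Its X-linked paralog *Rpl36a* was at 37.9 and 51.5 before SE, 30.98 and 55.2 at SE 6 h, 31.6 and 47.2 at SE + LEV 6 h, 54.95 and 54.6 at SE 2 days and 56.8 and 59.4 at SE + LEV 2 days. *Rpl36al* took 77.6% to 86.4% of the tags of this pair and was highest in SE 2 days mice (logFC = 0.97 with a standard error of 0.30, limma adjusted p = 0.1 against pre-SE). *Rps4y2* was at 9.10 and 26.3 before SE, 8.95 and 12.3 at SE 6 h, 15.02 and 15.9 at SE + LEV 6 h, 25.8 and 25.4 at SE 2 days and 18.7 and 17.3 at SE + LEV 2 days, far under *Rps4x*, and pre-SE replicate 2 was its highest mouse. *Rpl3*, which shapes the catalytic center, was at 37.2 and 19.98 before SE, 38.01 and 45.8 at SE 6 h, 43.5 and 40.2 at SE + LEV 6 h, 20.5 and 17 at SE 2 days and 19.9 and 51.4 at SE + LEV 2 days and was the lowest member by logFC at SE 2 days against pre-SE (logFC = −0.54 with a standard error of 0.43, limma adjusted p = 0.55). Its -ps row held 92.5% of their joint tags. Of the muscle and testis paralogs *Rpl3l*, *Rpl10l* and *Rpl39l*, none was among the members.

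Members with known roles outside the ribosome did not share 1 pattern. *Rps6*, the target of the S6 kinases, was at 179 and 159 before SE, 199 and 259 at SE 6 h, 180.4 and 332 at SE + LEV 6 h, 274 and 233 at SE 2 days and 208 and 319.9 at SE + LEV 2 days, with the highest value in SE + LEV 6 h replicate 2. *Rpsa*, also known as the laminin receptor, was at 289 and 353 before SE, 318 and 292 at SE 6 h, 328 and 266 at SE + LEV 6 h, 555 and 475 at SE 2 days and 518 and 322 at SE + LEV 2 days, and both SE 2 days mice exceeded both pre-SE mice (logFC = 0.69 with a standard error of 0.27, limma adjusted p = 0.19). *Rps3*, which also acts in DNA repair, was at 331 and 208 before SE, 329 and 306 at SE 6 h, 331 and 268 at SE + LEV 6 h, 278 and 305 at SE 2 days and 253 and 358 at SE + LEV 2 days, with pre-SE replicate 2 lowest and the groups overlapping. *Rpl5*, which joins *Rpl11* and 5S RNA in binding MDM2, was at 27.8 and 28.6 before SE, 30.1 and 67.2 at SE 6 h, 28.9 and 47.5 at SE + LEV 6 h, 48.1 and 39.1 at SE 2 days and 40.9 and 60.1 at SE + LEV 2 days. It was highest in SE 6 h replicate 2, and its 2 days mice were all above the pre-SE mice.

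The members whose products are not ribosome subunits were also measured. *Rpl7l1* was at 78.1 and 69.8 before SE, 68.1 and 47.1 at SE 6 h, 46.3 and 65.7 at SE + LEV 6 h, 76.2 and 76.6 at SE 2 days and 78.05 and 57.1 at SE + LEV 2 days. In the comparisons of SE 6 h, SE + LEV 6 h and SE + LEV 2 days with pre-SE it had a logFC of −0.38, −0.42 and −0.15, among the 3 lowest members each time, and at SE 2 days against SE 6 h it was at 0.43, near the median of members. *Rpl7* itself was at 46.9 and 74.4 before SE, 49.8 and 54.7 at SE 6 h, 48.5 and 62.1 at SE + LEV 6 h, 98.1 and 86.6 at SE 2 days and 91.6 and 75.1 at SE + LEV 2 days, highest in the SE 2 days and SE + LEV 2 days mice. *Rps19bp1* was at 48.4 and 90.5 before SE, 60.6 and 52.5 at SE 6 h, 46.4 and 50.2 at SE + LEV 6 h, 75 and 95.5 at SE 2 days and 97.2 and 54.7 at SE + LEV 2 days, with a logFC of −0.46 at SE + LEV 6 h against pre-SE and 0.59 at SE 2 days against SE 6 h. Of the remaining extremes, *Rps12* was at 339 and 563 before SE, 308 and 549 at SE 6 h, 388 and 381 at SE + LEV 6 h, 586 and 1006 at SE 2 days and 711 and 458 at SE + LEV 2 days, with SE 2 days replicate 2 highest. *Rps15a* was at 119 and 147 before SE, 126 and 257 at SE 6 h, 126 and 233 at SE + LEV 6 h, 173 and 201 at SE 2 days and 206 and 299 at SE + LEV 2 days, highest in SE + LEV 2 days replicate 2. Neither was called in any comparison.

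The members were also divided by features that the symbols did not use. The annotation of mm9 (GENCODE M1) places them on 19 chromosomes, 4 of them on X. At least 1 snoRNA lies inside 30 members, 59 snoRNAs in all. The median logFC at SE 2 days against pre-SE was 0.54 in these 30 and 0.58 in the 52 others. It was 0.50 in the 27 members with a run of at least 8 pyrimidines in a start window of 30 bases and 0.60 in the 33 others with a promoter entry, and 0.52 and 0.60 in the upper and lower 41 by mean CPM. At SE 6 h against pre-SE, the median was 0.27 with and 0.09 without such a run. By subunit, the median at SE 2 days was 0.51 for Rps and 0.60 for Rpl symbols. These medians are given without a test.

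Other genes of the pathway were read beside the members. Among 19 elongation factors and other TOP mRNAs, the median logFC at SE 2 days against pre-SE was 0.16 and 0 were called by limma. At SE 6 h against pre-SE, 1 of the 19 was called higher, *Snhg1*, a snoRNA host, beside 2.76% of all genes. *Snhg1* was at 17.5 and 11.6 CPM in pre-SE and 45.4 and 55.7 at SE 6 h (logFC = 1.81 with a standard error of 0.37, limma adjusted p = 0.029). *Eef1a1*, the main carrier of tRNA to the ribosome, was at 362 and 279 in pre-SE and 366 and 331 at SE 2 days (logFC = 0.13 with a standard error of 0.29, limma adjusted p = 0.85).

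Of 28 initiation factors tested, *Eif1*, which guards the choice of start codon, was called higher at SE 6 h, at 41.3 and 35.99 CPM in pre-SE and 76.2 and 111 at SE 6 h (logFC = 1.25 with a standard error of 0.25, limma adjusted p = 0.027). Of 51 ribosome biogenesis factors, *Sbds*, which helps release the large subunit, was called higher at SE 6 h, at 62.1 and 71.2 in pre-SE and 143 and 151 at SE 6 h (logFC = 1.14 with a standard error of 0.20, limma adjusted p = 0.016). These calls were 1 of 28 and 1 of 51 genes, beside 2.76% of all genes called higher at SE 6 h. No gene of these 2 lists was called at SE 2 days against pre-SE, where their medians were 0.29 and 0.17. *Eif1* and *Sbds* were at 57.2 and 57.2 and at 98.8 and 91.3 at SE + LEV 6 h, below both SE 6 h mice, as *Rpl21* was, but 0 genes of the lists were called between these groups.

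*Myc* is a transcription factor that drives ribosome synthesis, and *Eif4ebp1* an inhibitor of cap-dependent translation that mTOR switches off. Of 28 regulators in the mTOR, TOP and MYC list, both were called higher against pre-SE at SE 6 h, SE 2 days and SE + LEV 2 days. At SE + LEV 6 h, *Myc* alone was called. The shares of all genes called higher were 2.76%, 5.07%, 2.83% and 0.315% in these comparisons, in that order. *Myc* was at 0.830 and 1.14 before SE, 10.5 and 21.4 at SE 6 h, 15.2 and 16.5 at SE + LEV 6 h, 10.7 and 11.8 at SE 2 days and 11.2 and 5.59 at SE + LEV 2 days (logFC = 3.82 with a standard error of 0.43, limma adjusted p = 0.0023 at 6 h and logFC = 3.399 with a standard error of 0.43, limma adjusted p = 0.002 at 2 days). *Eif4ebp1* was at 5.48 and 5.65 before SE, 20.6 and 24.4 at SE 6 h, 8.31 and 9.58 at SE + LEV 6 h, 36.8 and 39.7 at SE 2 days and 39.3 and 12.2 at SE + LEV 2 days (logFC = 2.76 with a standard error of 0.45, limma adjusted p = 0.0059 at 2 days). *Mycn* was called lower at SE 2 days, at 2.50 and 2.63 CPM beside 8.10 and 8.43 before SE (logFC = −1.65 with a standard error of 0.35, limma adjusted p = 0.023). Both SE 6 h mice exceeded both pre-SE mice in *Myc*, and the ribosomal protein share overlapped between those groups. A link between *Myc* and the share was not tested.

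The 76 mitochondrial ribosomal protein genes listed, which build a separate ribosome inside mitochondria, had a median logFC of −0.31 at SE 6 h and 0.17 at SE 2 days against pre-SE, beside 0.14 and 0.56 for the cytosolic members. At SE 6 h 7 of 76 were above 0, beside 40% of all genes, and 0 were called by limma at either time against pre-SE. Between SE 2 days and SE 6 h mice, 72 of 76 were above 0, beside 55.7% of all genes. Of the 76, 2 were called higher, beside 3.14% of all genes. They were *Mrpl2* (logFC = 0.94 with a standard error of 0.21, limma adjusted p = 0.037) and *Mrpl51* (logFC = 1.11 with a standard error of 0.25, limma adjusted p = 0.036). The summed CPM of the 76 was 4585 and 5486 before SE, 3949 and 4566 at SE 6 h, 3837 and 4855 at SE + LEV 6 h, 5911 and 5855 at SE 2 days and 6090.2 and 5208 at SE + LEV 2 days. SE 6 h replicate 2 had the highest cytosolic share of all mice, and its mitochondrial sum of 4566 was just under the 4585 of pre-SE replicate 1. Within the pre-SE, SE 6 h, SE + LEV 6 h and SE + LEV 2 days groups, the mouse with the higher cytosolic share also had the higher mitochondrial sum. At SE 2 days the order was reversed. Whether the 2 families differ was not tested.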

How the data were processed

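CAGE of the whole hippocampus was analysed in 10 mice, 2 in each of 5 groups taken from the sample labels. Values were deposited by the authors as CPM per gene symbol. In the study's methods, 75-nt single-end reads from random-primed libraries (RNA integrity number over 7.0) were aligned to mm9 with BWA 0.7.17 and HISAT2 2.0.5, clustered, and filtered (clusters under 0.1 CPM, over 200 bp, with irreproducible discovery rate of 0.1 or more or under 90% overlap between replicates by BEDtools 2.12.0 were discarded), and the authors tested with edgeR 3.22.5. How clusters were summed to genes, the use of strand and the treatment of tags with several positions are not given in the sources used here.

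Genes that reached 0.1 CPM in 2 or more mice were tested on log2(CPM + 0.1) with limma 3.58.1 (R 4.3.3), with 1 fit over all 10 mice, a mean-variance trend and Benjamini-Hochberg adjustment over all genes (limit 0.05). All logFC values are on that scale, which understates the change of low genes. The script was tested on simulated data. Levels and figures used Python 3.11.15. Estimated depth was 10540699 to 51710969 tags per mouse. The labels name no cage, litter or batch, so p-values measure only the spread between these mice.

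Named genes were the members called, those used as PCR reference genes, the 3 highest and lowest by mean CPM, the 3 largest and smallest logFC of each comparison, paralog pairs, members that are not subunits, and members with roles outside the ribosome. The members and lists were chosen with earlier results of these data known. Alternatives were other pseudocounts, filters, scalings, sets of mice or members and the replicate number as a block.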

Additional observations from a re-analysis of the deposited data

How the results depend on the processing

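Over the alternatives run, 382 values of the main results lay within 1.5 times, or 1 SD, of the value reported, and 41 moved. This rule did not check the direction of a median, and some medians near 0 at 6 h changed sign within it. Of the values of single genes, 1361 kept direction and call, 48 lost the call, 20 gained it and 1 reversed. The planned edgeR and DESeq2 tests on recovered tag counts were not run, because the column check of whole reads, made on values rounded to 2 decimals, passed in 3 of the 10 mice. In each mouse 99.99% or more of the values lay within rounding of whole multiples of an estimated tag, where 10.8% to 52.7% would by chance. The effect of pseudocounts of 0.01, 0.5 and 1 and of the other filters on the count of members called at SE 2 days against pre-SE stayed within 1.5 times.

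With only the groups compared in the fit, 0 members were called at SE 6 h against pre-SE and 0 at SE 2 days against SE 6 h, where 0 were also called with no mean-variance trend. At SE 2 days against pre-SE, 4 of 82 members were called with median-of-ratios or TMM scaling and 1 with no mean-variance trend. Of all 15851 genes, 777, 796 and 759 were called higher in these settings, in that order. Leaving out each mouse gave 0 to 2 members called at SE 6 h and 0 to 2 at SE 2 days against pre-SE, 0 to 3 at SE 2 days against SE 6 h, and 0 to 1 at SE + LEV 2 days against pre-SE. The median logFC then ran from −0.16 to 0.44 at SE 6 h against pre-SE, from −0.37 to 0.26 for SE + LEV against SE at 6 h, from 0.14 to 0.69 for SE 2 days against SE 6 h and from −0.31 to 0.24 for the difference between the LEV effects at 2 days and 6 h. Leaving out 1 mouse of a group leaves 1, which is assumed to vary like the others.

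Same-numbered mice of the groups are different animals, and the labels do not pair them. With the replicate block, 1 member was called at SE 2 days against pre-SE (*Rps26* was lost), and the counts of adjusted calls in the other comparisons stayed within 1.5 times, although *Rpl10* lost its call at SE 2 days against SE 6 h. At an unadjusted p under 0.05, the block raised the members higher at SE + LEV 2 days against pre-SE from 6 to 20, and the share of all genes with the block was not counted. The same-number correlation of deviations was 0.34 for SE 6 h and 0.06 for SE 2 days with pre-SE, and −0.18 for SE + LEV with SE at 2 days. Over the members alone the 3 values were −0.42, 0.73 and −0.20, and over all comparisons they ran from −0.63 to 0.81. The numbers were also crossed in SE + LEV 2 days, an alternative chosen after seeing the data. The replicate block then called 7 of 82 members at SE 2 days against pre-SE and 5 at SE 2 days against SE 6 h. Calls over all 15851 genes also rose, to 1057 higher and 306 lower in the first comparison. In the second they were 671 higher and 285 lower.

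Other alternatives chosen after seeing the data added the listed -ps rows to their members, which left 1 member called at SE 6 h and 1 at SE 2 days against pre-SE and turned the logFC of *Rpl17* at SE 2 days against SE 6 h from −0.58 to 0.20. With the -ps rows, the share of tags was 2.08% in pre-SE, 2.92% in SE 2 days and 2.81% in SE + LEV 2 days mice. Without *Rps2* and *Rplp1*, the SE 2 days share was 2.39%, and the small to large ratio was 1.004 in pre-SE and 0.99 in SE 2 days mice. Without the -like paralogs and *Rps19bp1* the SE 2 days share was 2.40% and the ratio 1.01. The cause of these shifts was not tested.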

Other observations

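With 2 mice in each group, a single mouse decided the direction of the median at 6 h, and every call among the members was lost when some mouse was left out. A value of 1 member in 1 mouse carries no error of its own. Tags of near-identical genes and of the 55 listed -ps rows cannot be assigned with certainty, and 39 of the 82 members have such a row. CPM are shares of a total, so a gain of the members is relative to the other genes listed. CAGE counts capped ends, and neither translation nor protein was measured.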
